A study of Mus musculus with 60 samples.

Results

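In all, 10 genes of the amino acid stress response were followed through mouse cortical cultures and postnatal hippocampus: Atf4, Atf5, Ddit3, Trib3, Asns, Psat1, Mthfd2, Slc7a5, Slc7a11 and Chac1. They were chosen by name as genes linked to the transcription factor ATF4, 10 of the 39756 genes listed, with earlier results of these same data known, Slc7a5 and Mthfd2 having been leading genes when paxillin siRNA and scrambled siRNA were set side by side at DIV5 with BDNF. That comparison is therefore given as values with no test. Its libraries also enter the BDNF comparisons at DIV5, so nothing is read from the tests of those. All 10 genes passed the filter of a mean of at least 1 TPM (a level per transcript length, scaled so that each library sums to 1000000), as did 14250 genes in all.

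Cells that run short of amino acids, or that accumulate unfolded protein, phosphorylate the initiation factor eIF2, which slows general translation while the messages of ATF4 and ATF5 are translated better. ATF4 then switches on genes that make or import amino acids, with CHOP (the product of Ddit3) and TRIB3 as later members that lean towards cell death or restrain ATF4. Growth factor signalling through mTORC1 also raises ATF4 output, and neurons are known to use the same genes when trophic support or the redox state changes.

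Short-read RNA sequencing covered 48 libraries in 13 groups. Cortical neurons labelled WT, from mouse embryos labelled E18, were kept for 3, 5 or 10 days in vitro (DIV) and were given, at 2 DIV, scrambled (SC) siRNA or paxillin siRNA, each with or without BDNF (brain-derived neurotrophic factor) at 20 ng/ml; 2 further libraries were labelled E15 and carried no treatment. Without BDNF there were 3 SC siRNA and 5 paxillin siRNA libraries at DIV3, 4 and 6 at DIV5, and 3 and 4 at DIV10. With BDNF the numbers were 3 and 4, 4 and 5, and 3 and 2. Paxillin siRNA was a pool of 2 oligonucleotides, so every paxillin siRNA library shares those 2 sequences. Separate long-read sequencing covered 12 libraries of bulk hippocampus at P10, P15 and P21, 2 for each age and genotype, labelled WT (called control here) or paxillin KO, paxillin-S119A-KI (called S119A); the study's methods give the latter as Nestin-CreERT2; paxillin fl/S119A mice given tamoxifen at P5, P7 and P9, so the change is limited to cells with Nestin-driven Cre activity. The study's supplement gives the controls of these long-read libraries as PXN fl/S119A without Cre, so they may carry the same paxillin alleles, not recombined, although the labels give WT. The number in each culture label is called the culture here. The labels do not say whether libraries of a group came from separate dissections, so p-values measure the spread between these libraries, which may be partly technical.

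Several libraries stood apart before any comparison was made. At DIV10, 4 of 12 libraries (paxillin siRNA cultures 1 and 2, SC siRNA culture 3, and SC siRNA culture 3 with BDNF) had Mki67, a marker of dividing cells, at 1.28 to 9.51 TPM, against 59.5 to 111 TPM in the other 8. At DIV3 the SC siRNA and paxillin siRNA libraries of culture 3 were the most alike of all pairs (r = 0.996 across genes). Without BDNF at DIV5, paxillin's own gene, Pxn, was at 12.4 to 19.9 TPM with SC siRNA and 8.43 to 9.83 TPM with paxillin siRNA. Those ranges did not overlap, but at DIV3 they were 9.16 to 11.7 and 7.79 to 11.4 TPM. At DIV10 they were 8.99 to 19.9 and 11.5 to 18.8 TPM. With BDNF the ranges overlapped at each day. They were 7.98 to 12.3 and 10.01 to 11.8 TPM at DIV3, and 10.04 to 19.0 and 8.74 to 13.8 TPM at DIV5. At DIV10 with BDNF they were 9.82 to 15.9 and 10.9 to 12.5 TPM. The groups are therefore named by their labels at DIV3, at DIV10 and at DIV5 with BDNF. The column names carry a library number, and these fall into separate runs (called series here): all 4 DIV5 SC siRNA libraries without BDNF were of series 1-15, while cultures 1 and 2 of the other groups were of series 65-84. Pairs of cultures 1 and 2 that include the former, and the replicate block built on them, therefore cross series, and differences within a series are given beside the results they touch. Neuronal markers were present in every group, and so were those of astrocytes, oligodendrocytes and microglia. In bulk RNA fewer cells of a type and less RNA per cell cannot be told apart.

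ATF4 binds with partner factors to an element whose core is written TGATGNAA. This core was searched on both strands (reverse TTNCATCA) in RefSeq promoters of build GRCm38.p6, from 250 bases before to 50 bases after each gene's start. Promoters were found for 9 of the 10 genes, Slc7a5 being named only. The core was present for 4 of those 9 genes (Asns, Chac1, Slc7a11 and Trib3), against 4.51% of the 27025 genes with a promoter and 2.67% of the 11256 of them tested in the cultures. Of 25 further ATF4 targets with a promoter, a list described below, 7 (28%) held it. The stretches that hold it in the 4 genes are shown, 5′ to 3′ on the gene's strand, with the core in capitals.
Asns, chr6:7693214-7693243, minus strand, core starting 23 bases before the start: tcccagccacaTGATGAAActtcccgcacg
Slc7a11, chr3:50443661-50443690, minus strand, core starting 66 bases before the start: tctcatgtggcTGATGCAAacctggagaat
Slc7a11, chr3:50443642-50443671, minus strand, reverse core starting 47 bases before the start: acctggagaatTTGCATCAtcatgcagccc
Chac1, chr2:119351038-119351067, plus strand, reverse core starting 193 bases before the start: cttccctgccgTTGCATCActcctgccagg
Trib3, chr2:152344028-152344057, minus strand, reverse core starting at base 15 of the transcript: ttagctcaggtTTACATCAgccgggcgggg
Slc7a11 held the core in both directions, in windows that overlap by 11 bases, next to a promoter start that lies inside its RefSeq locus. The promoters of Atf4, Atf5, Ddit3, Psat1 and Mthfd2 did not hold these letters in this window; the Mthfd2 entry searched (chr6:83317555-83317854, minus strand) also lies inside its RefSeq locus, not at its outer end.

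In GRCm38.p6 RefSeq places Atf4 at chr15:80255184-80257545, Atf5 at chr7:44812256-44816658, Ddit3 at chr10:127290793-127296291 and Trib3 at chr2:152337425-152344060, the regulators of the group. The enzymes lie at chr6:7675165-7693209 (Asns), chr19:15905123-15925059 (Psat1), chr6:83305704-83326011 (Mthfd2) and chr2:119351242-119354326 (Chac1), and the carriers at chr8:121881146-121907686 (Slc7a5) and chr3:50364936-50499087 (Slc7a11). The values below are sums over each whole gene.

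The genes differed widely in level. Atf4 was the highest, with a median of 1116 TPM over the 48 libraries and a range of 545 to 3253 TPM. Slc7a5 (median 176 TPM), which imports large neutral amino acids, Asns (98.2 TPM), which makes asparagine, and Psat1 (85.1 TPM), an enzyme of serine synthesis, were at intermediate levels. Slc7a11 (median 2.26 TPM), the cystine importer of the glutathione pathway, and Trib3 (median 7.27 TPM), a pseudokinase that restrains ATF4, were the lowest, and Trib3 had the widest range as a ratio, 489-fold from 0.463 to 226 TPM.

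The genes moved together. Chac1, an enzyme that degrades glutathione, correlated with the mean of the other 9 at r = 0.961 over the 48 libraries, and Trib3 at 0.919. Slc7a11 was the least like the rest, at 0.494. After each group's mean was removed, all 45 pairs still had a positive correlation, from 0.191 to 0.925 with a median of 0.627. Libraries share culture, depth and cell make-up, so these are descriptions. The 5 other genes most like the mean z-score of the 10 were Eif4ebp1 (r = 0.938), which restrains translation initiation; Sesn2 (0.932), a leucine sensor; Shmt2 (0.929), which feeds mitochondrial one-carbon metabolism; Cyb5r1 (0.905), a reductase; and Slc3a2 (0.891), the partner chain of Slc7a5. Eif4ebp1, Sesn2, Shmt2 and Slc3a2 had been placed among the further ATF4 targets.

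**Figure D1:**
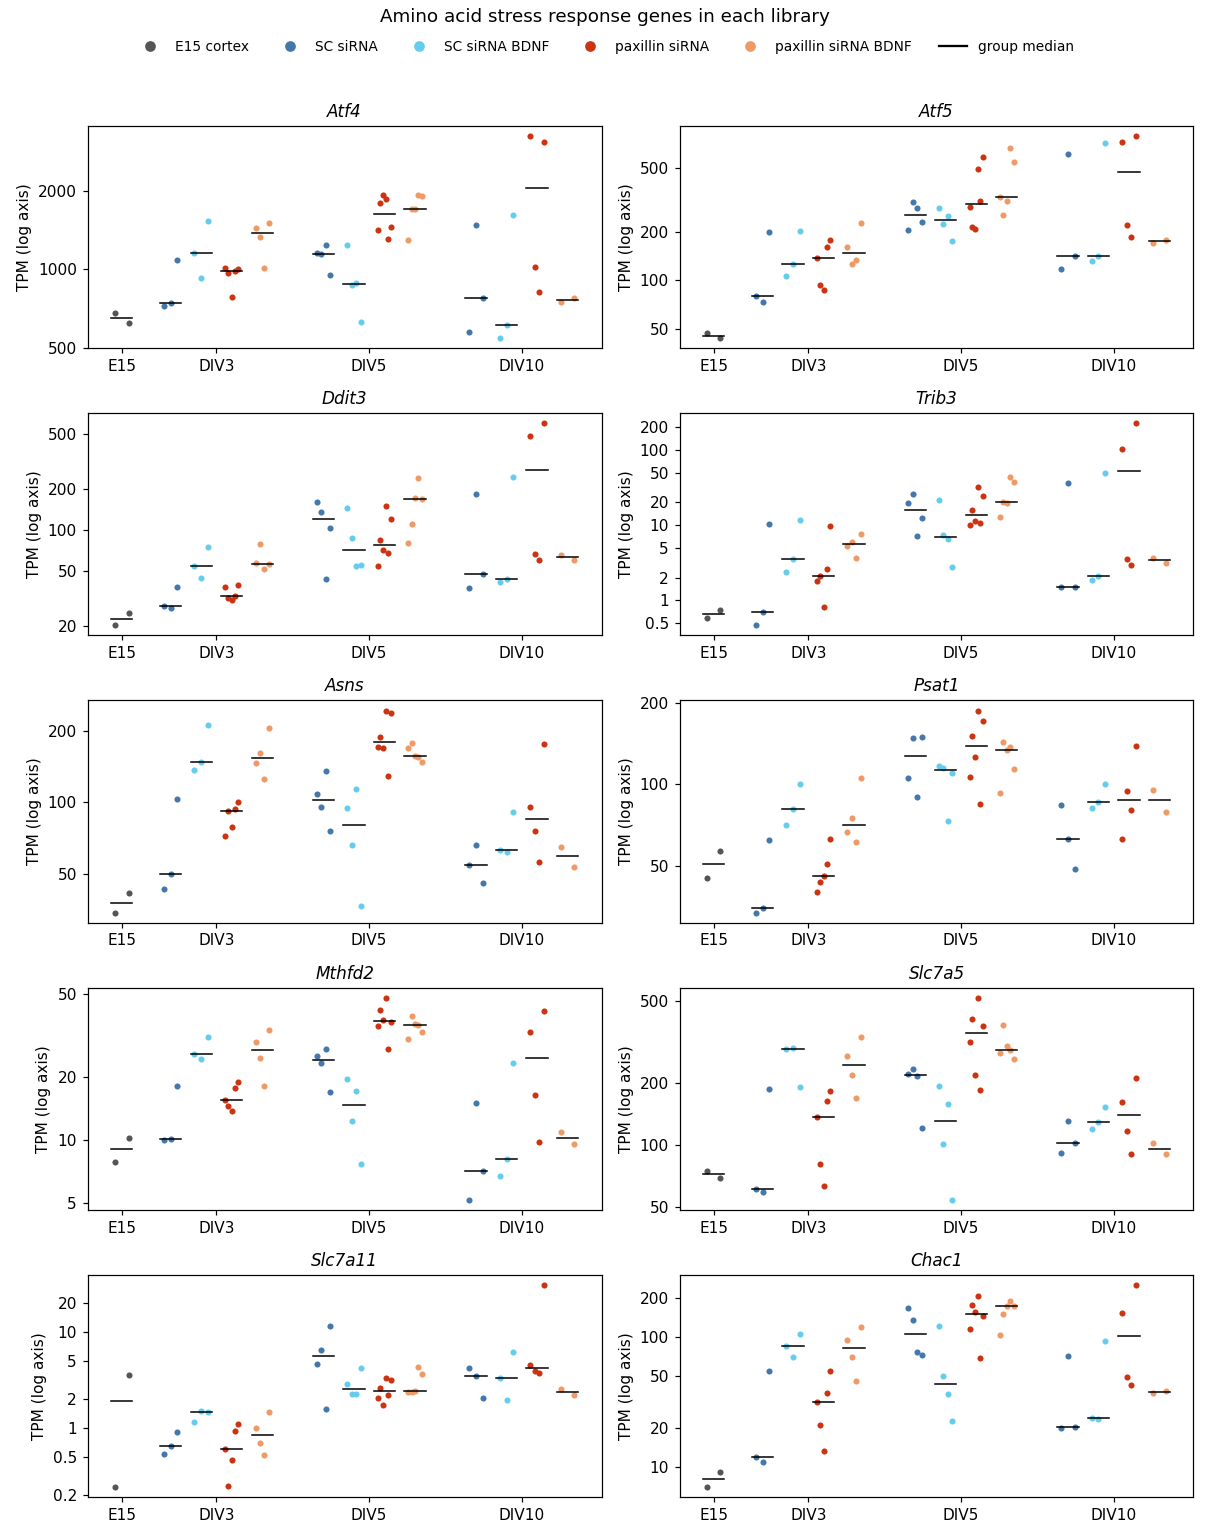
TPM on a log axis for each of the 10 genes, one point per library, by stage and treatment, with a bar at the group median. Atf4, Atf5, Ddit3, Trib3 and Chac1 split into separate levels at DIV10: Trib3 was at 36.4 to 226 TPM in 4 libraries and 1.503 to 3.65 TPM in the other 8.

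The first question was how these genes moved as cultures matured without BDNF. Every gene had its lowest group mean at E15 or DIV3, and all 10 had a higher mean at DIV5 than at DIV3 with either siRNA. With paxillin siRNA, 6 of 10 genes were called higher at DIV5 than at DIV3 and none lower (limma, adjusted p under 0.05, background 5.57% of genes tested): Atf5, Asns, Psat1, Mthfd2, Slc7a5 and Chac1. The median log2 difference of the 10 was 1.32, against 0.03 over all genes tested. Within series 1-15, 28-35 and 65-84 the median was 0.80, 1.47 and 1.32, with all 10 genes higher in each.

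Chac1 was at 13.3, 21.2, 31.9, 37.0 and 54.6 TPM in the 5 paxillin siRNA libraries at DIV3 and at 68.9 TPM (lowest), 151.4 TPM (median) and 209 TPM (highest) in the 6 at DIV5. Every DIV5 library was above every DIV3 library, with a log2 difference of 2.24 (SE 0.461, adjusted p = 0.00292). Psat1 was at 39.8 to 62.5 TPM at DIV3 and 84.3 to 188 TPM at DIV5 (log2 difference 1.45, SE 0.204, adjusted p = 3.93e-05). Slc7a5 went from 63.2 to 184 TPM at DIV3 to 184 to 516 TPM at DIV5 (1.44, SE 0.306, adjusted p = 0.00345), and Asns from 72.1 to 100.3 TPM to 129 to 244 TPM (1.09, SE 0.241, adjusted p = 0.00498).

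All 10 genes were higher at DIV5 in each paxillin siRNA library than in any at DIV3, a pattern that 5.33% of tested genes showed. In the 5 cultures measured on both days, each of the 10 genes was therefore higher at DIV5 in 5 of 5, which adds nothing further. From the highest DIV3 to the lowest DIV5 library the margin was small for Slc7a5 (183.5 and 184.3 TPM) and Trib3 (9.57 and 10.1 TPM). With culture as a replicate block the number called rose to 9 (Atf4 adjusted p = 0.0411, Trib3 0.0425, Slc7a11 0.0256), all but Ddit3. The terms of every such block are fitted over all culture libraries, the DIV5 ones with BDNF included. Block fits are therefore not independent of the choice of genes. Without cultures 10 and 11, which were given only paxillin siRNA, 1 was called, and the Atf5 call was lost in 9 of 11 fits that left out 1 library.

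With SC siRNA, 3 genes were called higher at DIV5 than at DIV3 (background 9.47%) and the median of the 10 was 1.38, against 0.11 over all genes. Day and library series went together here, since DIV3 cultures 1 and 2 were of series 65-84; within series 1-15, which sets the 4 DIV5 libraries against DIV3 culture 3 alone, the median was 0.39, with Slc7a11 at 1.68, Psat1 at 0.95, Chac1 at 0.94, Mthfd2 at 0.31, Slc7a5 at 0.04 and Asns at -0.03. Psat1 was at 33.5, 34.9 and 62.0 TPM at DIV3 and 90.0, 106, 148 and 150.2 TPM at DIV5, with no overlap (1.51, SE 0.258, adjusted p = 0.000365). Slc7a11 was at 0.533, 0.660 and 0.907 TPM at DIV3 and 1.58, 4.66, 6.55 and 11.7 TPM at DIV5 (1.85, SE 0.446, adjusted p = 0.00579). Chac1 was at 11.01, 11.9 and 55.0 TPM at DIV3 and 72.7, 77.6, 136 and 168 TPM at DIV5 (2.39, SE 0.581, adjusted p = 0.00621).

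The high DIV3 value of Chac1 was culture 3, and that library also had the highest Trib3 (10.4 TPM against 0.463 and 0.694 TPM) and Slc7a5 (186 TPM against 59.3 and 61.2 TPM) of its group. Its Gfap was 28.1 TPM, against 375 and 398 TPM in cultures 1 and 2. Without it, 5 genes were called, and without SC siRNA culture 1 or 2 at DIV3 Chac1 was not.

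Astrocyte marker sums were also higher at DIV5, where 9.47% of all genes were called with SC siRNA and 5.57% with paxillin siRNA. The 8 astrocyte markers summed to 196 to 799.5 TPM at DIV3 and 1164 to 7645 TPM at DIV5 with SC siRNA (4 of 8 called higher). With paxillin siRNA they summed to 189 to 928 and 946 to 1885 TPM (1 of 8). Neither pair of sums overlapped. Gjb6 was at 0 in every DIV3 paxillin siRNA library. The 7 oligodendrocyte markers summed to 885 to 1697 and 1595 to 5122 TPM with SC siRNA (1 called higher). With paxillin siRNA they summed to 780 to 1237 and 1233 to 2219 TPM (none called). Both pairs of oligodendrocyte sums overlapped, and none of the 7 was at 0 in every library of a group. None of the 5 tested microglial markers was called with either siRNA. Of the 8 neuronal markers 1 was called lower with SC siRNA and none with paxillin siRNA. The part of these cell types in the differences of the 10 genes was not tested.

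Between DIV5 and DIV10 with SC siRNA 4 genes were called lower and none higher, where 24.9% of all genes were called. Mthfd2, the mitochondrial folate enzyme, was at 16.9, 23.1, 25.2 and 27.0 TPM at DIV5 and 5.15, 7.10 and 14.9 TPM at DIV10 (log2 difference -1.36, SE 0.348, adjusted p = 0.00428). Psat1 (-0.92, SE 0.258, adjusted p = 0.00869), Asns (-0.88, SE 0.303, adjusted p = 0.0303) and Chac1 (-1.75, SE 0.581, adjusted p = 0.0242) also fell, and for each the groups did not overlap. For Chac1 the margin was small, from 71.8 TPM (highest at DIV10) to 72.7 TPM (lowest at DIV5). The share of all genes without overlap was not counted here. The call count fell to 1 without SC siRNA culture 1 or culture 6 at DIV10 and to 2 without SC siRNA culture 1 at DIV5.

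With paxillin siRNA, Asns (-1.01, SE 0.256, adjusted p = 0.00147), Slc7a5 (-1.19, SE 0.326, adjusted p = 0.00278), Psat1 (-0.55, adjusted p = 0.035) and Mthfd2 (-0.74, adjusted p = 0.035) fell from DIV5 to DIV10, and Slc7a11 rose (1.20, SE 0.377, adjusted p = 0.00866), 5 calls where 47.2% of all genes were called. The Psat1 call was lost in 5 and the Mthfd2 call in 4 of the 10 fits that left out 1 library, and both were lost without DIV5 culture 2, DIV5 culture 10 or DIV10 culture 11. Without cultures 10 and 11 all 4 lower calls were lost (Asns -0.55, adjusted p = 0.211, Slc7a5 -0.82, adjusted p = 0.1, Psat1 -0.48, adjusted p = 0.234, and Mthfd2 0.036, adjusted p = 0.947), and Atf4 (1.08, adjusted p = 0.00906), Ddit3 (2.55, adjusted p = 0.0012) and Trib3 (3.07, adjusted p = 0.0168) were called higher. Within series 65-84, which holds cultures 1 and 2, the median of the 10 was 0.65, and in culture 10 and culture 11 alone it was -1.06 and -1.25. The highest Slc7a11 was culture 2, at 30.9 TPM where the other 3 libraries were at 3.74 to 4.52 TPM, and it was not called without that library. Without the 4 DIV10 libraries of low Mki67, Atf4 (-0.82, adjusted p = 0.00225), Trib3 (-1.996, adjusted p = 0.0144) and Chac1 (-1.56, adjusted p = 0.0154) were also called lower, and Slc7a11 and Psat1 were not called.

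Cell type markers moved between these days as well. All 5 tested microglial markers were called higher with paxillin siRNA and 4 of 5 with SC siRNA, with sums of 18.0 to 53.4 TPM at DIV5 and 147 to 1135 TPM at DIV10, and of 30.2 to 80.7 and 129 to 717 TPM. Of the 8 neuronal markers 6 were called lower with paxillin siRNA (2026 to 3462 and 462 to 1423 TPM), and 1 lower and 1 higher with SC siRNA. Of the 8 markers of dividing progenitors 6 were called lower and 1 higher with paxillin siRNA, and 5 lower with SC siRNA. Their part in the differences of the 10 genes was not tested.

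From E15 to DIV3 with SC siRNA none of the 10 was called by limma (background 8.11%, 3516 of 14250 genes at an unadjusted p under 0.05). Atf5 was at 43.6 and 46.8 TPM at E15 and 72.9, 79.8 and 202 TPM at DIV3 (1.21, SE 0.622, adjusted p = 0.224), and it was called without the DIV10 libraries of low Mki67 (adjusted p = 0.0416). The E15 libraries differed from each other in Slc7a11, at 0.242 and 3.61 TPM.

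The further ATF4 targets were a list of 30 genes. From DIV3 to DIV5 with paxillin siRNA 14 of 30 were called higher and none lower (median 0.91, where 5.57% of all genes were called), led by Psph (1.10, adjusted p = 4.09e-05), the last step of serine synthesis, Jdp2 (0.95, adjusted p = 0.000809) and Gpt2 (0.69, adjusted p = 0.00242). With SC siRNA 10 were higher and none lower (median 1.05, background 9.47%), led by Gpt2 (1.17, adjusted p = 0.000101), Cbs (1.37, adjusted p = 0.000365) and Psph (1.10, adjusted p = 0.000495). Of 18 aminoacyl-tRNA synthetases, which charge tRNAs and many of which ATF4 induces, 6 were higher with paxillin siRNA (Cars 1.00, adjusted p = 0.00273, Mars1 0.77, adjusted p = 0.00313, and Nars 0.60, adjusted p = 0.0162) and none with SC siRNA.

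From DIV5 to DIV10, where 24.9% of all genes were called with SC siRNA and 47.2% with paxillin siRNA, the shares of the targets called were below these and that of the synthetases was above with SC siRNA alone. With SC siRNA 12 of the 18 synthetases were lower and none higher, led by Iars (-0.96, adjusted p = 0.0013), Lars (-0.94, adjusted p = 0.00204) and Kars (-0.46, adjusted p = 0.00276), as were 6 of the 30 targets, led by Aldh1l2 (-1.86, adjusted p = 7.4e-05), Aldh18a1 (-1.07, adjusted p = 0.00278) and Psph (-0.81, adjusted p = 0.0029). With paxillin siRNA 8 of 18 synthetases, a share below the 47.2% of all genes, were lower (Mars1 -0.81, adjusted p = 0.000192, Lars -0.86, adjusted p = 0.000278, and Cars -0.86, adjusted p = 0.00144), while the targets split into 5 higher and 8 lower, with Vldlr (-1.35, adjusted p = 2.91e-07) and Aldh1l2 (-1.83, adjusted p = 1.18e-06) lower and Atf3 (2.41, adjusted p = 4.97e-06) higher. Of 12 endoplasmic reticulum chaperones and related genes, 1 was called from DIV3 to DIV5 with paxillin siRNA (Herpud1, 1.02, adjusted p = 0.0309) and none with SC siRNA. From DIV5 to DIV10 3 were lower with paxillin siRNA (Xbp1 -0.73, adjusted p = 0.000622, Pdia6 -1.20, adjusted p = 0.000752, and Edem1 -0.72, adjusted p = 0.00169) and none with SC siRNA. None of the 14 sensors and eIF2 regulators was called from DIV3 to DIV5 with either siRNA. From DIV5 to DIV10, 2 were lower with SC siRNA (Gcn1 -0.49, adjusted p = 0.00129, and the eIF2 kinase Eif2ak3 -0.88, adjusted p = 0.0365), while with paxillin siRNA 5 were higher, among them Impact (0.89, adjusted p = 6.61e-05) and the eIF2 phosphatase subunit Ppp1r15a (1.59, adjusted p = 0.00623), and 2 lower. From E15 to DIV3 each of these 4 lists had 1 gene called, higher: Vldlr, Mars1, Edem1 and Gcn1. These shares were near or below the 8.11% of all genes called, so nothing is read from them.

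The second question was what BDNF did. Of 8 genes used as a check of the neurotrophin, at DIV3 3 rose with SC siRNA and 5 with paxillin siRNA, Arc by 4.80 (adjusted p = 1.46e-08) and 4.97 (adjusted p = 1.51e-11) on the log2 scale, Egr1 by 4.14 (adjusted p = 3.42e-06) and 4.17 (adjusted p = 2.72e-08), and Dusp6 by 2.16 (adjusted p = 0.0245) and 2.18 (adjusted p = 0.00183). At DIV5 and DIV10 none of the 8 was called with either siRNA, with medians of 0.56 (SC) and 0.68 (paxillin siRNA) at DIV5 and -0.33 and 0.52 at DIV10.

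At DIV3 all 10 amino acid stress genes had a higher mean with BDNF, with either siRNA. With SC siRNA the median log2 difference was 0.96, against -0.01 over all genes, and 1 gene was called (background 1.21%). Asns was at 43.3, 50.03 and 103.7 TPM without BDNF and 137, 148 and 212 TPM with it, so that the groups did not overlap (1.40, SE 0.324, adjusted p = 0.0171).

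Chac1 was at 11.01, 11.9 and 55.0 TPM without BDNF and 70.8, 85.4 and 106 TPM with it (2.09, SE 0.621, adjusted p = 0.093). Slc7a5 was at 59.3, 61.2 and 186 TPM without and 191, 290.2 and 294 TPM with BDNF (1.52, SE 0.412, adjusted p = 0.0545). Both pairs of groups were apart, and in both genes the high library without BDNF was culture 3.

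Deviations of same-numbered cultures went together here (r between 0.289 and 0.563 in the 3 cultures), so the fit with culture as a replicate block is given beside it: 4 genes were called, Asns (adjusted p = 0.00387), Slc7a5 (0.0153), Psat1 (0.98, adjusted p = 0.022) and Chac1 (0.0422). As above, this block also draws on the DIV5 libraries with BDNF. Each of the 10 genes was higher with BDNF in 3 of 3 cultures. The share of all genes that were so was not counted, and the 10 move together. The Asns call was lost without SC siRNA culture 1 or 2, or without culture 3 with BDNF, and 4 genes were called without SC siRNA culture 3. Slc7a5 in culture 3 was 186 TPM without and 191 TPM with BDNF, while culture 1 went from 61.2 to 290.2 TPM and culture 2 from 59.3 to 294 TPM.

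With paxillin siRNA at DIV3 the median difference was 0.72 (all genes -0.02) and no gene was called (limma, background 2.14%, 1770 of 14250 genes at an unadjusted p under 0.05). Asns was at 72.1, 78.5, 91.8, 94.0 and 100.3 TPM without BDNF and 126, 147, 161 and 206 TPM with it, apart in every library (0.85, SE 0.266, adjusted p = 0.0935). With culture as a replicate block, for which r lay between 0.440 and 0.745, Asns (0.95, adjusted p = 0.0156) and Slc7a5 (1.13, adjusted p = 0.0236) were called. All 10 genes were higher with BDNF in 4 of 4 cultures, and here too the share of all genes was not counted. Slc7a5 was at 63.2, 80.6, 136, 163 and 184 TPM without BDNF and 169, 217, 269 and 335 TPM with it, which overlapped by 1 library on each side.

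Other genes of the response that moved at DIV3 were Psph (1.10, adjusted p = 0.00223), and the cationic amino acid carriers Slc7a1 (1.42, adjusted p = 0.019) and Slc7a3 (3.00, adjusted p = 0.048), the 3 of 30 further ATF4 targets called with SC siRNA, with none lower. Psph alone of that list was called with paxillin siRNA (0.80, adjusted p = 0.00605). Cars was the 1 synthetase of 18 called with SC siRNA (1.03, adjusted p = 0.0496). No chaperone and no sensor was called. Summed neuronal markers were 2894 to 3986 TPM with SC siRNA and 2391 to 2739 TPM with SC siRNA and BDNF. With paxillin siRNA they were 2732 to 4121 against 2167 to 2459 TPM, and neither pair of sums overlapped. None of the 8 neuronal markers was called, with median log2 differences of -0.07 with SC siRNA and -0.22 with paxillin siRNA. None of them was at 0 in every library of a group. Astrocyte markers summed to 196 to 799.5 and 212 to 856 TPM with SC siRNA, and Gjb6 was at 0 in every library with BDNF. The part of the lower neuronal sum in these results was not tested.

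At DIV5 the direction was not the same. With SC siRNA all 10 genes had a lower mean with BDNF, with a median of -0.59 against -0.01 over all genes, but none was called by limma (background 0.0491%, 1268 genes at an unadjusted p under 0.05). Chac1 was at 72.7, 77.6, 136 and 168 TPM without BDNF and 22.5, 36.6, 50.3 and 123 TPM with it (-1.14, SE 0.538, adjusted p = 0.535), and Mthfd2 at 16.9, 23.1, 25.2 and 27.0 TPM without and 7.64, 12.3, 17.0 and 19.4 TPM with it (-0.73, SE 0.322, adjusted p = 0.499). The groups overlapped for every gene, yet Asns, Mthfd2, Slc7a5 and Chac1 were lower with BDNF in 4 of 4 cultures. In cultures 1 and 2 the library with BDNF was of series 65-84 and the one without of series 1-15, so those pairs also cross series; within series 1-15 (2 libraries with and 4 without BDNF) the median was -0.75, all 10 genes being lower. With paxillin siRNA 6 genes had a higher and 4 a lower mean, with a median of 0.12 (all genes -0.01) and none called by limma (background 0.014%, 981 genes at an unadjusted p under 0.05). Ddit3 and Trib3 were higher in 5 of 5 cultures, at 80.8 to 237 TPM against 54.8 to 149 TPM for Ddit3, while Asns and Mthfd2 were lower in 5 of 5.

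The DIV5 libraries with BDNF, of SC siRNA and of paxillin siRNA, were those of the comparison known when the genes were chosen. The limma results for BDNF at DIV5 are therefore not independent of that choice, and nothing is read from them. For the same reason the BDNF difference was not tested between DIV3 and DIV5.

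**Figure D2:**
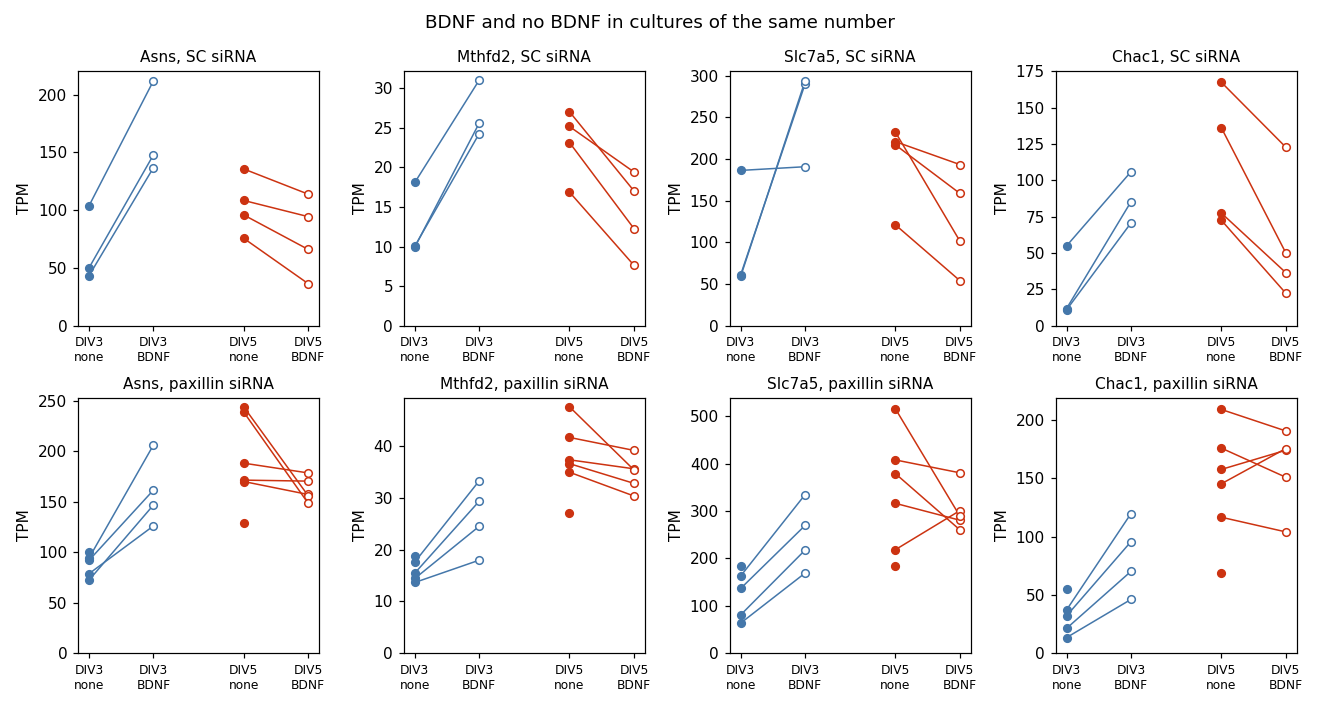
TPM of Asns, Mthfd2, Slc7a5 and Chac1 without (filled) and with BDNF (open) at DIV3 (blue) and DIV5 (red), with a line joining libraries of the same culture, for SC siRNA above and paxillin siRNA below. At DIV3 every line goes up, though Slc7a5 in SC siRNA culture 3 only from 186 to 191 TPM. At DIV5 with SC siRNA every line goes down, and the lines of cultures 1 and 2 there cross library series.

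At DIV10 BDNF gave no call with SC siRNA (limma, background 0%, 352 genes at an unadjusted p under 0.05, median 0.30) or with paxillin siRNA (background 0.014%, 2568 genes at an unadjusted p under 0.05, median -1.16). The negative median with paxillin siRNA sets cultures 1, 2, 10 and 11 without BDNF against cultures 10 and 11 with it. Within culture 10 Ddit3 was at 66.9 TPM without and 66.03 TPM with BDNF, and within culture 11 at 60.4 and 60.0 TPM, whereas cultures 1 and 2, which have no BDNF partner, were at 479 and 597 TPM. The calls rose to 3 without culture 11 and to 1 without culture 10 of the paxillin siRNA libraries without BDNF.

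The third question was the effect of paxillin siRNA at each day. At DIV3 none of the 10 was called without BDNF (limma, background 0%, 21 of 14250 genes at an unadjusted p under 0.05) or with it (background 0%, 229 genes at an unadjusted p under 0.05). The median differences were 0.25 and -0.05, and without BDNF -0.02 within series 1-15 (culture 3) and 0.74 within series 65-84 (cultures 1 and 2). Asns was at 43.3, 50.03 and 103.7 TPM with SC siRNA and 72.1 to 100.3 TPM with paxillin siRNA (0.50, SE 0.290), and with BDNF at 137 to 212 and 126 to 206 TPM (-0.05, SE 0.303). In culture 3 Chac1 was at 55.0 TPM with SC siRNA and 54.6 TPM with paxillin siRNA, while it was at 11.9 and 31.9 TPM in culture 1 and at 11.01 and 37.0 TPM in culture 2.

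At DIV5 without BDNF 1 gene was called, higher (background 6.18%, with 114 genes higher and 766 lower). Asns was at 75.8, 96.0, 108 and 136 TPM with SC siRNA and at 129, 169.9, 171, 188, 239 and 244 TPM with paxillin siRNA (0.86, SE 0.256, adjusted p = 0.0387), the lowest paxillin siRNA library lying below the highest SC siRNA one. Mthfd2 was at 16.9, 23.1, 25.2 and 27.0 TPM with SC siRNA and 27.05 to 47.7 TPM with paxillin siRNA, apart only by the margin between 27.03 and 27.05 TPM, both of culture 3 (0.68, SE 0.294, adjusted p = 0.156). Atf4 was at 953 to 1236 TPM with SC siRNA and 1313 to 1933 TPM with paxillin siRNA, also without overlap (0.53, SE 0.291, adjusted p = 0.277).

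Ddit3 and Trib3 overlapped widely: Ddit3 was at 43.6 to 160 TPM with SC siRNA and 54.8 to 149 TPM with paxillin siRNA (-0.21, SE 0.506), and Trib3 at 7.08 to 25.6 and 10.1 to 32.2 TPM (0.11, SE 0.869). Slc7a11 was lower in mean, at 1.58 to 11.7 TPM against 1.75 to 3.34 TPM (-0.81, SE 0.377, adjusted p = 0.19). Cultures of the same number deviated together (r between 0.244 and 0.488 in 4 cultures), and with culture as a replicate block 3 genes were called: Asns (0.94, adjusted p = 0.00538), Mthfd2 (0.80, adjusted p = 0.0321) and Slc7a5 (0.86, adjusted p = 0.0371). The block also draws on the DIV5 libraries with BDNF, in which Slc7a5 and Mthfd2 had been leading genes. Its calls are therefore not independent of the choice of genes. Atf4, Atf5 and Mthfd2 were higher with paxillin siRNA in 4 of 4 cultures and Asns in 3 of 4. The Asns call was lost when any of SC siRNA cultures 1, 2 or 4 or of paxillin siRNA cultures 1, 2, 4 or 10 was left out, and 2 genes were called without SC siRNA culture 3; without cultures 10 and 11 none was called. Within series 1-15 (paxillin siRNA cultures 3 and 4 against all 4 SC siRNA libraries) the median of the 10 was 0.22, against 0.36 over all libraries, with Asns at 0.78, Mthfd2 at 0.45 and Slc7a5 at 0.46.

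With BDNF at DIV5, the comparison that had been known when the genes were chosen, all 10 genes had a higher mean with paxillin siRNA, with a median log2 difference of 1.05 against -0.10 over all genes. Slc7a5 was at 54.2, 102, 159 and 193 TPM with SC siRNA and 260.2, 280.4, 289, 301 and 380.5 TPM with paxillin siRNA (1.38), and Mthfd2 at 7.64, 12.3, 17.0 and 19.4 TPM and 30.4, 32.9, 35.5, 35.7 and 39.2 TPM (1.31). Asns was at 36.5, 66.1, 94.5 and 114 TPM and 149, 156, 157, 170.3 and 178 TPM (1.17), and Atf4 at 631, 874, 884 and 1235 TPM and 1296, 1709, 1711, 1911 and 1923 TPM (0.94).

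These 4 genes were the ones whose groups did not overlap; 0.688% of tested genes were higher without overlap in this comparison, from which nothing is read here. Chac1 (1.69) and Trib3 (1.57) had larger differences but overlapped through SC siRNA culture 1, at 123 and 21.4 TPM. Slc7a11 was at 2.25 to 4.29 and 2.36 to 4.36 TPM (0.04). The mean of Asns in the paxillin siRNA libraries was 162 ± 12.04 TPM with BDNF (SD, n = 5) and 190.1 ± 44.3 TPM without it (n = 6), and in the SC siRNA libraries 77.8 ± 33.8 TPM with BDNF and 104.0 ± 25.1 TPM without it (n = 4 each). The SC siRNA libraries with BDNF are shared by this comparison and by the BDNF comparison at DIV5, so the 2 are not independent.

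Sums of cell type markers at DIV5 were set side by side by siRNA label. Without BDNF 1 of 8 astrocyte and 1 of 8 progenitor markers were called, both lower with paxillin siRNA. No neuronal or oligodendrocyte marker was called, where 6.18% of all genes were. Of the sums below, only that of dividing progenitors without BDNF did not overlap. The 8 astrocyte markers summed to 1164 to 7645 TPM with SC siRNA and 946 to 1885 TPM with paxillin siRNA. With BDNF they summed to 1306 to 5985 and 1036 to 1782 TPM. The 8 markers of dividing progenitors summed to 1166 to 1944 and 736 to 1011 TPM, without overlap, and with BDNF to 1217 to 2398 and 818 to 1442 TPM. Without BDNF their median log2 difference was -0.14, and Mki67 alone overlapped, at 80.2 to 180 and 76.9 to 164 TPM. Gfap alone was at 508 to 5053 TPM with SC siRNA and 120 to 1214 TPM with paxillin siRNA. The 8 neuronal markers summed to 1283 to 2764 and 2026 to 3462 TPM, and with BDNF to 1362 to 2702 and 1492 to 2681 TPM. The 7 oligodendrocyte markers summed to 1595 to 5122 and 1233 to 2219 TPM, and with BDNF to 1359 to 5425 and 1414 to 3095 TPM. None of the markers summed here was at 0 in every library of a group. The part of these cell types in the siRNA differences was not tested.

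At DIV10 without BDNF 1 gene was called, higher (background 2.58%). Mthfd2 was at 5.15, 7.10 and 14.9 TPM with SC siRNA and 9.74, 16.3, 32.9 and 41.2 TPM with paxillin siRNA (1.29, SE 0.348, adjusted p = 0.0435), with overlap. The median of the 10 was 0.95, against -0.06 over all genes. The paxillin siRNA libraries fell into separate levels: Atf4 was at 3253 and 3073 TPM in cultures 1 and 2 and 1016 and 821 TPM in cultures 10 and 11, and SC siRNA culture 3, at 1475 TPM, stood above cultures 1 and 6 (574 and 773 TPM). Only culture 1 was measured with both siRNAs. The 1 series that holds both, 65-84, sets paxillin siRNA cultures 1 and 2 against SC siRNA culture 1, with a median of 2.54.

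The Mthfd2 call was lost without paxillin siRNA culture 1 or 2 or SC siRNA culture 1 or 6, while 6 genes were called without SC siRNA culture 3 or paxillin siRNA culture 11, and 4 without paxillin siRNA culture 10. Without the 4 libraries of low Mki67 none was called, which leaves SC siRNA cultures 1 and 6 and paxillin siRNA cultures 10 and 11. Without cultures 10 and 11 the number was 8. With BDNF none was called (limma, background 0.0211%, 1023 genes at an unadjusted p under 0.05), with a median of -0.27.

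**Figure D3:**
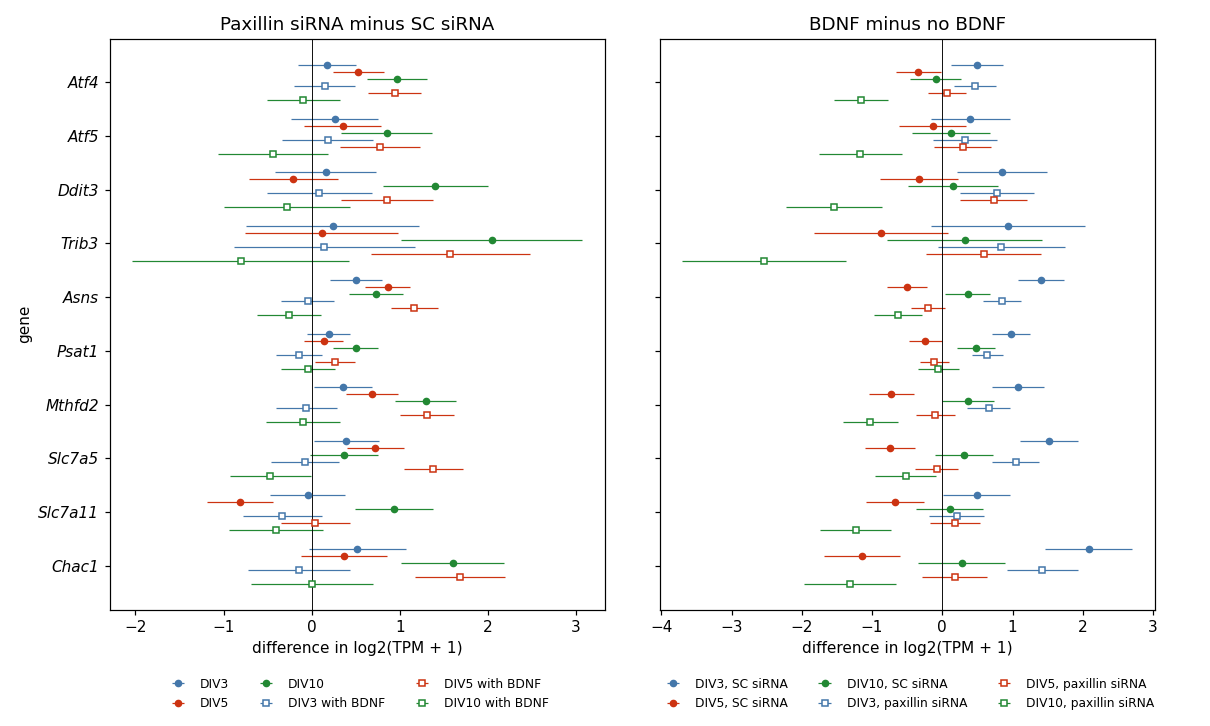
Log2 differences with standard errors for the 10 genes, paxillin siRNA minus SC siRNA on the left and BDNF minus no BDNF on the right, by day. Points for DIV5 with BDNF lie right of 0 for all 10 genes on the left, and points for DIV3 do so on the right. The former comparison was known when the genes were chosen and was not tested, so its standard errors are descriptive only.

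The 4 DIV10 libraries of low Mki67 shared a high level of these genes across labels. Ddit3 was at 181 to 597 TPM in them and 38.0 to 66.9 TPM in the other 8, Atf5 at 619.8 to 799 against 118 to 222 TPM, Atf4 at 1475 to 3253 against 545 to 1016 TPM, and Chac1 at 71.8 to 252 against 20.0 to 49.7 TPM, each with no overlap. Slc7a5 was also apart, by little, at 131 to 211 against 90.3 to 129 TPM. Asns (66.2 to 176 against 45.7 to 75.9 TPM), Psat1, Mthfd2 and Slc7a11 overlapped. The same libraries had Gfap at 455 to 707 TPM, below the 1724 to 5459 TPM of the others, and their summed neuronal markers were 462 to 1032 TPM against 1051 to 1692 TPM. Pxn was also apart, at 13.4 to 19.9 TPM in these libraries against 8.99 to 13.2 TPM in the others. How many of all tested genes lay apart between them was not counted, so the split is not read as particular to these genes. These libraries were set apart by a level seen in the data, so no test was made between them and the rest.

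**Figure D4:**
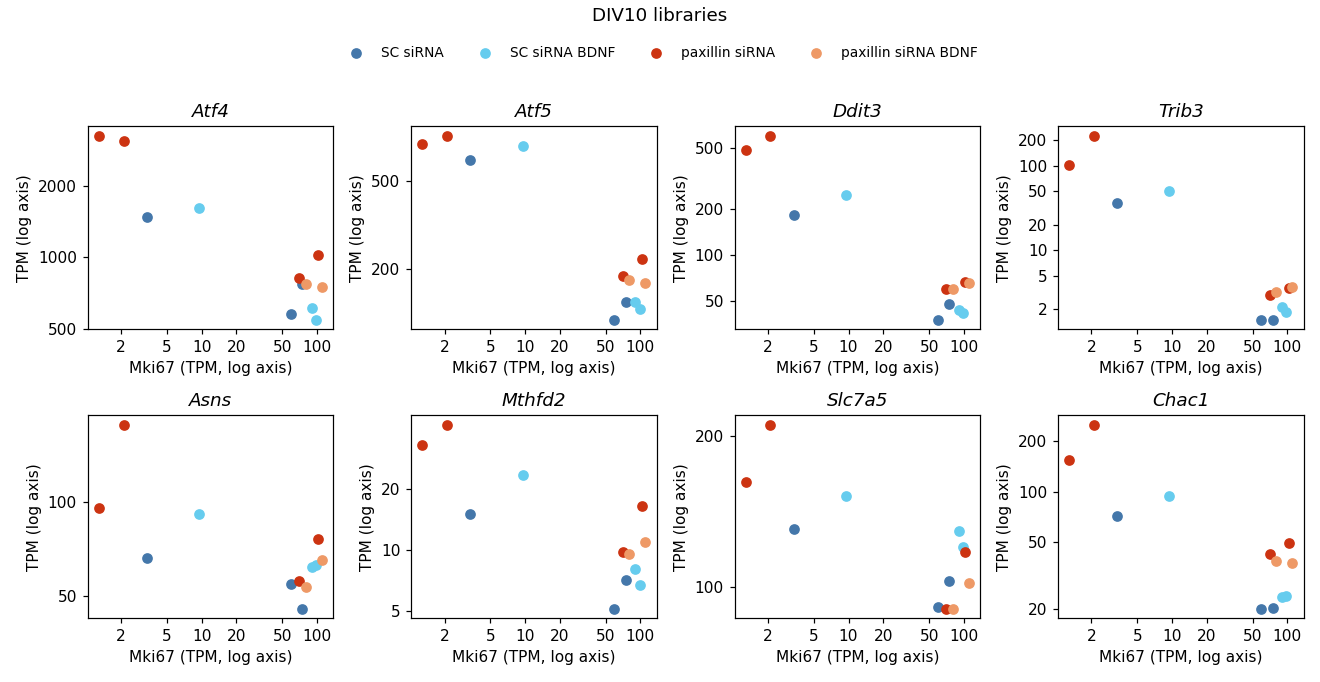
TPM of 8 of the genes against Mki67 TPM in the 12 DIV10 libraries, both on log axes, coloured by treatment. The 4 libraries under 10 TPM of Mki67 come from 3 treatments and lie above the other 8 for Atf4, Atf5, Ddit3, Trib3, Slc7a5 and Chac1. The share of all tested genes that do so was not counted.

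Differences of the siRNA effect between days were tested directly. None of the 10 was called for DIV5 minus DIV3 (limma, background 0%, 1054 genes at an unadjusted p under 0.05) or for DIV5 minus DIV10 (background 5.76%, 3599 genes at an unadjusted p under 0.05). The lowest adjusted p was 0.0613, for Slc7a11 at DIV5 minus DIV10 (-1.75, SE 0.584). The number of calls at DIV5 minus DIV10 was 1 without paxillin siRNA culture 10 or 11 or SC siRNA culture 3 at DIV10, or SC siRNA culture 3 at DIV5, and 6 without cultures 10 and 11. Of the 30 further targets, Gpt2 (-1.05, adjusted p = 0.0116) and Atf3 (-2.24, adjusted p = 0.0275) had a lower and Vldlr (0.91, adjusted p = 0.0464) a higher siRNA difference at DIV5 than at DIV10. Of the other lists at DIV5, Gpt2 (-0.55, adjusted p = 0.0227) was the 1 of 30 further ATF4 targets called, lower with paxillin siRNA, and Gcn1 (-0.33, adjusted p = 0.03), the activator of the eIF2 kinase GCN2, the 1 of 14 sensors, also lower. No synthetase or chaperone was called, where 6.18% of all genes were. At DIV10 Tars (0.76, adjusted p = 0.0491) was the 1 synthetase called, where 2.58% of all genes were.

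The hippocampus gave a readout that the choice of the genes had not used. Libraries held 3162777 to 5687908 reads, and reads on transcripts of a gene were summed. Asns had 477 to 1350 reads, Slc7a5 147 to 1328 and Psat1 363 to 621, while Trib3 had 1 to 9 and was too low to test, so that 9 of 10 genes were tested. Between S119A and control over the 3 ages none of the 9 was called by edgeR (background 0%, 126 of 13556 genes at an unadjusted p under 0.05, and none by DESeq2), with log2 differences from -0.22 (Mthfd2, SE 0.166) to 0.31 (Atf5, SE 0.486).

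A difference over the 3 ages can hold opposite directions. Slc7a11 was at 8.096 and 8.147 RPM (reads scaled to a library total of 1000000) in S119A and 11.7 and 11.2 RPM in control at P10, but at 26.4 and 23.6 against 12.2 and 10.2 RPM at P21, each without overlap, and it overlapped at P15. Asns was at or above 240.5 RPM in both S119A libraries and 218.5 and 227 RPM in control at P10 and at 146 to 178 and 187 to 204 RPM at P21. Atf4 at P10, Atf5 at P21 and Slc7a5 at P10 also lay apart by genotype, and the other genes overlapped at each age. With 2 libraries for each genotype and age, groups can lie apart though nothing differs, so no direction is read from these values. Slc7a11 and Asns were picked out after the values were seen, and the genotype difference was not tested between ages.

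Age moved more of them. From P10 to P21 in both genotypes 3 genes were called (edgeR, background 15.7%). Ddit3 rose from 14.3, 13.6, 15.01 and 9.26 RPM at P10 to 28.7, 38.3, 24.6 and 36.3 at P21, with no overlap (1.31, SE 0.294, adjusted p = 0.0137). Psat1 rose from 84.2 to 90.2 RPM to 114 to 133 (0.49, SE 0.118, adjusted p = 0.0185), and Mthfd2 fell from 21.3 to 25.3 to 8.20 to 15.4 RPM (-0.83, SE 0.203, adjusted p = 0.0203). The Psat1 call was lost without P21 S119A library 2, and the Mthfd2 call without P10 control library 2 or either P10 S119A library. Slc7a5 was at 234 to 246 RPM in all 4 libraries at P10 and at 144, 41.4, 185 and 61.2 at P21 (-1.17, SE 0.382, adjusted p = 0.0639), the lower value in each genotype being library 2. Atf4 itself was at 43.3 to 49.0 RPM at P10 and 41.8 to 73.8 at P21 (0.31, SE 0.212, adjusted p = 0.364).

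**Figure D5:**
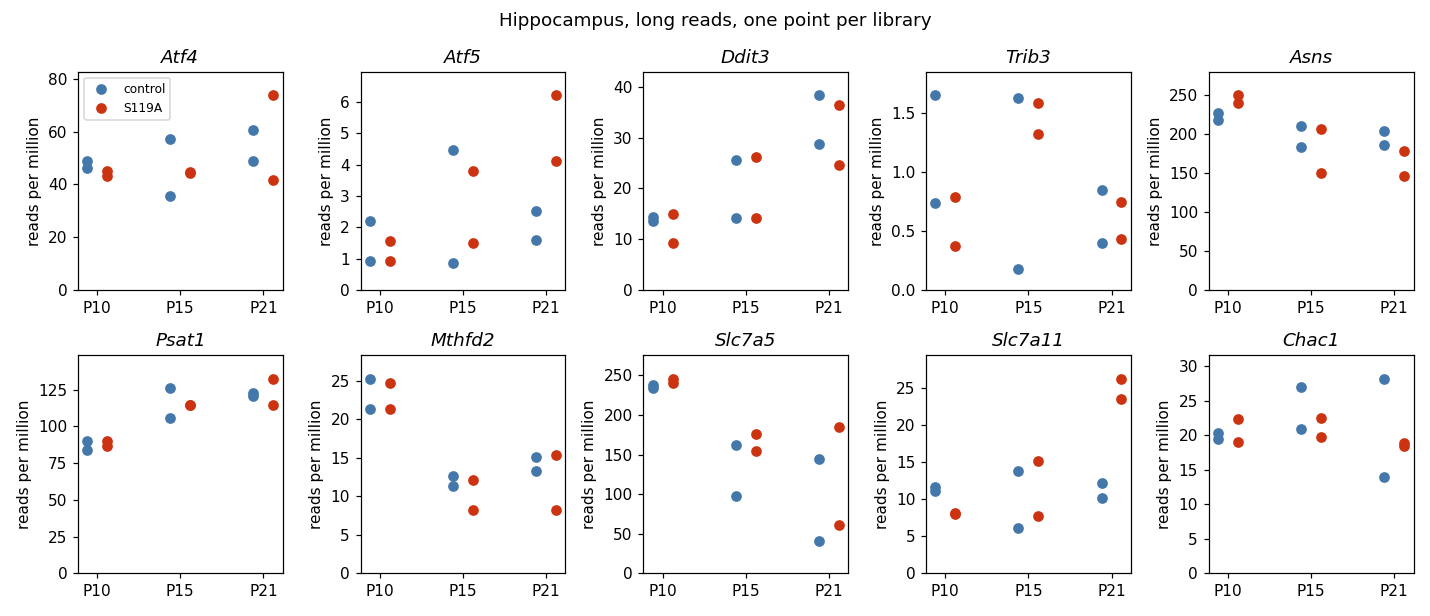
RPM (of the library total) for the 10 genes in hippocampus at P10, P15 and P21, one point per library, control in blue and S119A in red. The P21 libraries of Ddit3 lie at 24.6 to 38.3, above the P10 libraries at 9.26 to 15.01, and the genotypes overlap for Ddit3 at each age.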

How the data were processed

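The authors deposited a table of TPM for 48 short-read libraries, made with STAR 2.7.10 and RSEM 1.3.3 on GRCm38 per the labels, in which each library sums to 1000000, so that depth is unknown. They also deposited a table of transcript read counts for 12 long-read hippocampus libraries (minimap2 and SAMtools, mm10), which hold 3162777 to 5687908 reads. The labels give mouse embryos of E18 for the cultures and E15 for the starting libraries. Columns were matched to samples by label.

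Here TPM was tested with limma 3.58.1 (lmFit and eBayes with trend, R 4.3.3) on log2(TPM + 1), in 1 fit of 13 groups over the 14250 genes whose mean reached 1 TPM. Log2 differences of cultures are on that scale, which understates the change of low genes, and p-values were adjusted by Benjamini-Hochberg over all genes with a threshold of 0.05. Hippocampus counts were summed per gene and tested with edgeR 4.0.16 (quasi-likelihood, TMM, filterByExpr, age and genotype as terms) over 13556 genes, with DESeq2 1.42.0 as an alternative. The script for each was tested on simulated data. Groups lying apart, or a direction held in every culture, were counted over all genes only where that share is given. Culture numbers paired the samples where, with 3 or more pairs, every correlation of deviations was above 0.1; this held for siRNA at DIV3 (0.277 to 0.806) and DIV5, for BDNF at DIV3 and DIV5 with either siRNA, and for DIV3 to DIV5 with paxillin siRNA.

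The members and gene lists (30 further ATF4 targets, 18 aminoacyl-tRNA synthetases, 12 chaperones, 14 sensors, 8 BDNF genes and cell type markers) were chosen with earlier results of these data known. For each list at most 3 called genes with the lowest adjusted p were named per comparison. Promoters are from RefSeq (GRCm38.p6). Alternatives were another pseudocount, no filter on low values, rescaling, fits of the compared groups only, culture as a block, the series of library numbers as a term, and libraries left out.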

Additional observations from a re-analysis of the deposited data

Results flagged for a closer look

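Of 70 groups of 4 or more libraries examined for a library far from the rest (10 genes in 7 groups, of which chance alone would mark about 5%), 5 held one. Atf4 was at 783 TPM in DIV3 paxillin siRNA culture 11, where the others lay between 965.1 and 1010 TPM. Trib3 was at 9.57 TPM in DIV3 paxillin siRNA culture 3, above the next value of 2.61 TPM. Psat1 was at 73.4 TPM in DIV5 SC siRNA culture 3 with BDNF, below the next value of 110.2 TPM. Slc7a5 was at 121 TPM in DIV5 SC siRNA culture 4, below the next value of 217 TPM. Slc7a11 was at 30.9 TPM in DIV10 paxillin siRNA culture 2, one of the libraries of low Mki67, above the next value of 4.52 TPM.

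Some differences turned direction between stages in every culture measured both ways. These turns were not tested, and they are given as mean log2 differences over same-numbered cultures. The share of all tested genes that turned in this way was not counted. With SC siRNA, BDNF minus none went from 3 of 3 cultures higher at DIV3 to 4 of 4 lower at DIV5 and 2 of 2 higher at DIV10 for Asns (1.40, -0.50 and 0.33), Mthfd2 (1.07, -0.73 and 0.47), Slc7a5 (1.52, -0.74 and 0.31) and Chac1 (2.09, -1.14 and 0.31), the DIV5 libraries with BDNF being ones known when the genes were chosen. At DIV5 the SC siRNA pairs of cultures 1 and 2 cross library series, as given above. The paxillin siRNA pair of culture 11 at DIV3 crosses series as well. With paxillin siRNA the DIV5 libraries with BDNF were also ones known when the genes were chosen. There the BDNF difference went from 4 of 4 higher at DIV3 to 5 of 5 lower at DIV5 for Asns (0.90 and -0.30) and Mthfd2 (0.72 and -0.18). From DIV3 to the 2 of 2 lower cultures at DIV10 it also turned for these 2 genes (-0.14 and -0.29), Atf4 (0.49 and -0.26), Atf5 (0.44 and -0.21), Ddit3 (0.83 and -0.014), Slc7a5 (1.21 and -0.10), Slc7a11 (0.29 and -0.50) and Chac1 (1.66 and -0.28), and Ddit3 was also higher in 5 of 5 at DIV5 (0.67).

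In hippocampus the log2 ratio of mean RPM, S119A over control, was -0.50 at P10 and 1.16 at P21 for Slc7a11 and 0.14 at P10 and -0.27 at P21 for Asns, the 2 libraries of each genotype lying apart at both ages. With so few libraries, groups can lie apart though nothing differs. These differences between ages were not tested either.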

How the results depend on the processing

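Numbers here are how many of the 10 genes were called. Without the filter on low values they were 0 for siRNA at DIV5 and 0 at DIV10 (1 each as reported), 2 for DIV5 to DIV10 with SC siRNA (4) and 3 with paxillin siRNA (5). After rescaling by median ratios they were 2 for BDNF with SC siRNA at DIV3 (1) and 2 for DIV5 to DIV10 with SC siRNA. With the compared groups alone they were 0 for siRNA at DIV5 and DIV10, for BDNF with SC siRNA at DIV3, and for DIV3 to DIV5 (3) and DIV5 to DIV10 with SC siRNA, 3 for BDNF with paxillin siRNA at DIV3 (0), and 10 for DIV3 to DIV5 (6) and 2 for DIV5 to DIV10 with paxillin siRNA. With culture as a replicate block they were 3 for siRNA at DIV5, 4 and 2 for BDNF at DIV3 with SC and paxillin siRNA, and, where the numbers did not pair the samples, 3 for siRNA at DIV10 and 7 for DIV3 to DIV5 with SC siRNA; the block moved no other number by over 1.5 times. With the series of library numbers as a term they were 3 and 8 for siRNA at DIV5 and DIV10, 2 for BDNF at DIV3 with either siRNA, and 1 for the siRNA difference at DIV5 minus DIV10 (0). Without cultures 10 and 11 they were 0 and 8 for siRNA at DIV5 and DIV10, 1 for DIV3 to DIV5 with paxillin siRNA and 6 for DIV5 minus DIV10, Mthfd2 from DIV5 to DIV10 with paxillin siRNA turned to 0.036, and DIV10 paxillin siRNA with BDNF had no libraries left. Without the DIV10 libraries of low Mki67, chosen after seeing the data, they were 3 and 0 for siRNA at DIV5 and DIV10, 5 and 2 for BDNF at DIV3 with SC and paxillin siRNA, 1 for E15 to DIV3 (0), 8 and 10 for DIV3 to DIV5 with SC and paxillin siRNA, and 7 for DIV5 to DIV10 with SC siRNA. Leaving out 1 library gave 0 to 2 for siRNA at DIV5, 0 to 6 at DIV10, 0 to 4 for BDNF with SC siRNA at DIV3, 0 to 3 for BDNF with paxillin siRNA at DIV10, 2 to 5 for DIV3 to DIV5 and 1 to 4 for DIV5 to DIV10 with SC siRNA, 3 to 5 for DIV5 to DIV10 with paxillin siRNA and 0 to 1 for DIV5 minus DIV10. The cause of these shifts was not tested. The median of the 10 genes for siRNA at DIV5 with BDNF was 1.05, and 0.815 to 1.33 under every alternative. Results of that comparison were known when the genes were chosen, so this steadiness is a description and no support. Among counts over the 10 genes and that median, 284 values stayed within 1.5 times, 34 gained and 32 lost; among called single genes 315 kept their side of the threshold, 88 lost it and 1 turned. In hippocampus the block by library number gave 0 calls for genotype and 4 for age. The culture block could not be fitted from E15 to DIV3.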
